A study of Homo sapiens with 12 samples.

Results

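The 9 genes described here are members of the Hedgehog pathway: the ligands SHH and IHH, the receptor PTCH1, the ligand antagonist HHIP, the signal transducer SMO, the negative regulator SUFU and the transcription factors GLI1, GLI2 and GLI3. They were chosen with earlier results of these data known and were taken by symbol from a table of 60564 genes. Each symbol was found on a single row. Their RNA was measured in BxPC-3 and CFPAC-1, established lines of human pancreatic ductal adenocarcinoma, to see what accompanies the growth of primary cilia. Induced BxPC-3 and induced CFPAC-1 cells had been starved of serum for 48 h, and control cells of each line were kept in normal culture. Cilia were counted by the submitters on 78% of induced and 5% of control BxPC-3 cells, and on 39% of induced and 7% of control CFPAC-1 cells, with no error given. Each of the 4 groups had 3 libraries. Effects of starvation and of the cilia cannot be told apart, since every induced library had both, and the lines were grown without the stromal cells of a tumour.

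Hedgehog ligands are secreted proteins that bind the PTCH1 receptor and so lift its inhibition of SMO, a membrane protein of the G protein-coupled receptor class. In vertebrates this step takes place at the primary cilium: SMO enters it, SUFU releases the GLI proteins, and GLI2 and GLI3 pass from repressor to activator forms. PTCH1, HHIP and GLI1 are themselves induced by the signal and are widely read as its output. In pancreatic cancer, tumour cells are known mainly as a source of ligand and the surrounding fibroblasts as the cells that respond, although in mice GLI1 is also expressed in tumour cells that lack SMO.

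A level of 1 FPKM (a read level scaled for transcript length and for the total of the library) was used as the line between genes that are clearly transcribed and the rest. By their group means, 5 of the 9 members reached it in some group. SUFU did so in all 4 groups. GLI3 did so in induced and control BxPC-3 cells, and GLI1 and GLI2 in induced and control CFPAC-1 cells. Only 1 of 3 libraries was at 1 FPKM or more for GLI3 in induced BxPC-3 and for GLI2 in control CFPAC-1. SHH reached it in control CFPAC-1 cells. PTCH1, SMO, IHH and HHIP stayed below it in every group, so no group had PTCH1 or the transducer at that level.

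**Figure D1:**
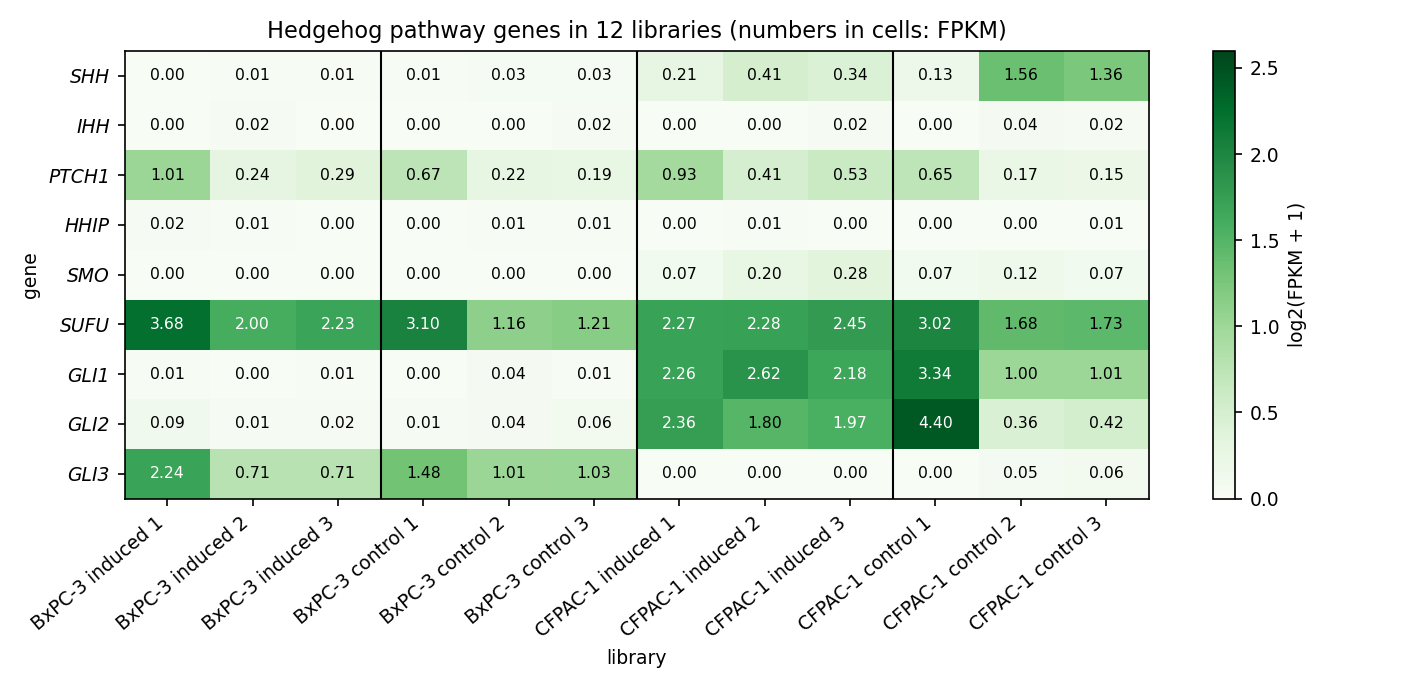
FPKM of the 9 members (rows, ordered by role) in the 12 libraries (columns, numbered within each group). Colour is on the log2(FPKM + 1) scale, and the FPKM value is written in each cell. SUFU is at or above 1 FPKM in all 12 libraries, GLI3 lies on the BxPC-3 side and GLI1 and GLI2 on the CFPAC-1 side, and SMO is listed at 0 in the 6 BxPC-3 libraries.

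Among the libraries, those labelled CFPAC-1 control 2 and 3 stood apart from the rest of their line, which touches every CFPAC-1 control value below. Across tested genes their mean r was 0.803 with the other 4 CFPAC-1 libraries, against 0.944 among those 4, and it was 0.785 with BxPC-3 and 0.99 between the pair. KRT19, a keratin of duct epithelium, was at 7.42 and 7.67 FPKM in these libraries and at 254 to 627 FPKM in the other CFPAC-1 libraries. Results that rest on control 2 and 3 are therefore given with and without them, and without them the single control left takes its spread from the other groups. By group means, all 6 duct epithelium markers reached 1 FPKM in BxPC-3, and 5 of 6 in CFPAC-1, where CDH1 (E-cadherin) stayed at or below 0.892 FPKM. The keratin gene KRT7 averaged only 1.43 FPKM in induced and 1.42 FPKM in control CFPAC-1, against 494 and 535 FPKM in BxPC-3. KRT8 and KRT18 averaged higher in CFPAC-1 than in BxPC-3 in each state. The deposited values hold no counts, so depth was only estimated: from the lowest values of single-transcript genes, the shallowest library had about 0.634 times the depth of the deepest. Separate cultures are not stated for the libraries of a group, so the spread behind the p-values may be technical. In these bulk samples, fewer cells expressing a gene and less RNA of it per cell cannot be told apart.

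Among the ligands, RNA of SHH (Sonic hedgehog, GRCh38 chromosome 7, 155799986 to 155812273, minus strand) was found mainly in CFPAC-1. It stood at 0, 0.0104 and 0.00969 FPKM in induced BxPC-3 libraries and at 0.0103, 0.0317 and 0.0332 FPKM in control BxPC-3 libraries. In induced CFPAC-1 libraries it stood at 0.213, 0.415 and 0.345 FPKM, and in control CFPAC-1 libraries at 0.126, 1.56 and 1.36 FPKM. Only CFPAC-1 control 2 and 3 exceeded 1 FPKM, whereas control 1 lay below the 3 induced libraries, so the direction of the CFPAC-1 change depends on which controls are used. The library numbers are not known to pair libraries. Compared by number, the log2(FPKM + 1) of SHH was 0.83 lower after induction for numbers 2 and 3, and 0.11 higher for number 1. SHH reached 1 FPKM in 2 libraries and the filter asked for 3, so it was left out of the test. Fitted with no filter, its BxPC-3 minus CFPAC-1 difference was -0.39 between induced cells (adjusted p = 0.442) and -0.89 between control cells (adjusted p = 0.0687), by limma with Benjamini-Hochberg adjustment. IHH (Indian hedgehog, chromosome 2, 219054420 to 219060467, minus strand) was at most 0.0384 FPKM and was listed at 0 in 7 of 12 libraries. DHH, the remaining ligand of the family, was at most 0.142 FPKM and listed at 0 in 8.

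Of the genes that process and release the ligand, only DISP2, a relative of the ligand exporter DISP1, reached 1 FPKM in a group, and it did so in CFPAC-1. HHAT, the enzyme that attaches palmitate to the ligand, was between 0.135 and 0.602 FPKM in all 12 libraries, and DISP1 itself between 0.134 and 0.795 FPKM. Among co-receptors, CDON reached 1.97, 1.22 and 1.32 FPKM in induced CFPAC-1, against 1.38, 0.546 and 0.552 FPKM in control CFPAC-1, and these ranges overlapped. GAS1 averaged above 1 FPKM in induced BxPC-3 cells through library 1, at 2.23, 0.698 and 0.697 FPKM, against 0.972, 0.512 and 0.286 FPKM in control BxPC-3. BOC was at most 0.0742 FPKM.

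The receptor PTCH1 (chromosome 9, 95442980 to 95517057, minus strand) was low in both lines. It stood at 1.01, 0.241 and 0.287 FPKM in induced BxPC-3 libraries, against 0.665, 0.216 and 0.192 FPKM in control BxPC-3 libraries. In CFPAC-1 it stood at 0.926, 0.409 and 0.527 FPKM in induced libraries, against 0.652, 0.174 and 0.15 FPKM in control libraries. Induced and control values overlapped in each line, and the values of the lines overlapped as well. Library 1 was the highest of its group in all 4 groups, which was also so for 8.83% of tested genes. Compared by library number, which is not known to pair libraries, the induced value was the higher in both lines. The log2(FPKM + 1) difference was 0.27 for number 1 and 0.07 for numbers 2 and 3 in BxPC-3, and 0.22 and 0.34 in CFPAC-1. PTCH1 reached 1 FPKM in 1 library and was not tested in the fit used here. Fitted with no filter on low values, its log2 changes had values of 0.14 in BxPC-3 (adjusted p = 1) and 0.30 in CFPAC-1 (adjusted p = 0.554) by limma with Benjamini-Hochberg adjustment. Part of its RNA shares 711 exonic bases with the antisense gene AL161729.1, which was at most 0.554 FPKM, and without strand information the reads of these genes cannot be told apart. HHIP (chromosome 4, 144646021 to 144745271, plus strand), a decoy receptor that takes up ligand, was at most 0.0161 FPKM and was listed at 0 in 3 libraries.

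Because PTCH1 is a textbook target of GLI, its promoters were searched for the GLI consensus GACCACCCA, or TGGGTGGTC on the other strand. RefSeq promoters on GRCh38.p14, each from 250 bases before to 50 bases after a start site, were held for 7 of the 9 members (12 promoters), among them 5 of PTCH1. The motif was found in 1 of them, the PTCH1 promoter at chr9:95509217-95509516 (minus strand), shown here 5′ to 3′ with the motif in capitals.
PTCH1 promoter: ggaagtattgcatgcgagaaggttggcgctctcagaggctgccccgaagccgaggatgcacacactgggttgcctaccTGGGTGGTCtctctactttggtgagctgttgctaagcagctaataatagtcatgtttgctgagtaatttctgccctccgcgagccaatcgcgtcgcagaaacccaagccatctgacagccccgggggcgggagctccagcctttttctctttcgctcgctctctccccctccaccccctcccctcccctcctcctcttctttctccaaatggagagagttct
The first base of the motif lies at -172 from the start site. Of all 35116 promoters in the table, 83 (0.236%) hold this motif, and of the 39 genes of the wider Hedgehog list that have a promoter there, PTCH1 was the only one. A match of letters is a description and does not show that GLI binds there in these cells.

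SMO (chromosome 7, 129188872 to 129213545, plus strand), the membrane protein that carries the signal into the cell, was listed at 0 in all 3 induced and all 3 control BxPC-3 libraries. By the depth estimate, 3 reads would have stood for 0.0382 to 0.0489 FPKM. In CFPAC-1 it was detected in every library, at 0.0718, 0.196 and 0.279 FPKM in induced libraries, against 0.0703, 0.118 and 0.0686 FPKM in control libraries, or about 4.72 to 19.4 reads. The lines did not overlap in either state, and induced and control CFPAC-1 values did. With no filter on low values, the lines were compared by limma with Benjamini-Hochberg adjustment. The log2(FPKM + 1) difference, BxPC-3 minus CFPAC-1, was -0.24 between induced cells (SE 0.0533, adjusted p = 0.0175) and -0.12 between control cells (adjusted p = 0.232). The SE pools all 4 groups, and the BxPC-3 values at 0 add no spread to it. It is therefore smaller than the spread among induced CFPAC-1 libraries would give, and the p-value rests in part on those zeros. A listed 0 can be a failed estimate: PSAP, a lysosomal gene that cells generally use, was listed at 0 in 1 library and reached 579 FPKM in another. EVC, which with EVC2 forms a complex that relays the SMO signal at the base of the cilium, was at 2.07 and 2.01 FPKM in CFPAC-1 control 2 and 3 and at most 0.104 FPKM in the other 10 libraries. EVC2 was listed at 0 in 11 of 12 libraries. TULP3, which carries receptors into the cilium, and GRK2, the kinase that phosphorylates SMO, reached 1 FPKM in all 12 libraries.

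SUFU (chromosome 10, 102503987 to 102633535, plus strand) binds GLI proteins and holds them back, and was the only member at or above 1 FPKM in every library. It stood at 3.68, 2.00 and 2.23 FPKM in induced BxPC-3, against 3.1, 1.16 and 1.21 FPKM in control BxPC-3. In CFPAC-1 it stood at 2.27, 2.28 and 2.45 FPKM in induced libraries, against 3.02, 1.68 and 1.73 FPKM in control libraries. All 4 groups overlapped, and in 3 of them library 1 was the highest. Group means were 2.64 ± 0.909 in induced BxPC-3, 2.33 ± 0.0965 in induced CFPAC-1, 2.14 ± 0.764 in control CFPAC-1 and 1.83 ± 1.11 FPKM in control BxPC-3 (SD, n = 3 each), and no neighbours in this order differed beyond their spread. The log2(FPKM + 1) change on induction was 0.40 in BxPC-3 (95% interval -0.20 to 1.01, adjusted p = 0.767) and 0.11 in CFPAC-1 (95% interval -0.50 to 0.72, adjusted p = 0.808) by limma with Benjamini-Hochberg adjustment. Without CFPAC-1 control 2 and 3 the CFPAC-1 change was -0.27. BxPC-3 minus CFPAC-1 was 0.10 between induced cells (95% interval -0.51 to 0.70) and -0.19 between control cells (95% interval -0.80 to 0.41), and neither passed the threshold. The interval for BxPC-3 reaches 1.01, so the test does not show that SUFU was alike in the groups.

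The GLI transcription factors divided by line, GLI1 and GLI2 being higher in CFPAC-1 and GLI3 in BxPC-3. The lines differ widely: 36.2% of the 12860 tested genes passed between induced BxPC-3 and induced CFPAC-1 and 26.2% between the controls, and values did not overlap for 54.5% and 42.3% of them. GLI1 (chromosome 12, 57460135 to 57472262, plus strand), an activator and itself a target of the pathway, stood at 0.0133, 0 and 0.0111 FPKM in induced BxPC-3 and at 0, 0.0364 and 0.0105 FPKM in control BxPC-3, at most about 2.33 reads. In CFPAC-1 it stood at 2.26, 2.62 and 2.18 FPKM in induced libraries, against 3.34, 0.999 and 1.01 FPKM in control libraries. Every CFPAC-1 library lay far above every BxPC-3 library. The log2(FPKM + 1) difference, BxPC-3 minus CFPAC-1, was -1.73 between induced cells (SE 0.259, adjusted p = 0.000439) and -1.35 between control cells (95% interval -1.92 to -0.78, adjusted p = 0.00278) by limma with Benjamini-Hochberg adjustment, and -2.10 between control cells without CFPAC-1 control 2 and 3. The filter bears on this: GLI1 passed it only through CFPAC-1, so a difference between lines was built in. With no filter, limma with the same adjustment still gave adjusted p = 0.00219 between induced and 0.0104 between control cells.

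GLI2 (chromosome 2, 120735623 to 120992653, plus strand), the main activator of the pathway, followed the same division. It stood at 0.0913, 0.0148 and 0.0208 FPKM in induced BxPC-3 and at 0.0144, 0.0405 and 0.0609 FPKM in control BxPC-3. In CFPAC-1 it stood at 2.36, 1.8 and 1.97 FPKM in induced libraries, against 4.4, 0.357 and 0.423 FPKM in control libraries. CFPAC-1 lay above BxPC-3 in every library, and its control libraries 2 and 3 lay far below its other 4. The difference, BxPC-3 minus CFPAC-1, was -1.54 between induced cells (SE 0.413, adjusted p = 0.0135), which missed the threshold with no filter (adjusted p = 0.0503), by limma with Benjamini-Hochberg adjustment. Between control cells it was -1.07 (95% interval -1.98 to -0.17, adjusted p = 0.0777) and did not pass, whereas without CFPAC-1 control 2 and 3 it was -2.38 (adjusted p = 2.29e-05). GLI2 passed the filter only through CFPAC-1.

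GLI3 (chromosome 7, 41960950 to 42237870, minus strand), which is mostly a repressor in the absence of ligand, had the opposite distribution. It stood at 2.24, 0.712 and 0.711 FPKM in induced BxPC-3, against 1.48, 1.01 and 1.03 FPKM in control BxPC-3. In CFPAC-1 all 3 induced libraries were listed at 0, and the control libraries had 0, 0.0495 and 0.0622 FPKM. BxPC-3 lay above CFPAC-1 in every library, and within BxPC-3 the induced range enclosed the control range. BxPC-3 minus CFPAC-1 was 1.08 between induced cells (SE 0.232, adjusted p = 0.00414) and 1.06 between control cells (95% interval 0.55 to 1.57, adjusted p = 0.00605), and 1.11 between control cells without CFPAC-1 control 2 and 3 (adjusted p = 0.0374), by limma with Benjamini-Hochberg adjustment. GLI3 passed the filter only through BxPC-3, and with no filter the adjusted p-values were 0.011 and 0.0161 by the same limma test. The SE pools all 4 groups, and the CFPAC-1 values at or near 0 add almost no spread to it. Induced BxPC-3 libraries spread more widely than the SE of 0.232 reflects, so these p-values rest in part on values at the floor. The longest identical stretch shared by transcripts of any pair of GLI genes was 27 bases, between GLI2 and GLI3.

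The levels of the 3 GLI genes gave no order that held in both lines. In induced CFPAC-1 cells, GLI1 averaged 2.35 ± 0.236 FPKM and GLI2 2.04 ± 0.283 FPKM, and their libraries overlapped. In control CFPAC-1 cells they averaged 1.78 ± 1.35 and 1.73 ± 2.32 FPKM (SD, n = 3 each), with control 1 the highest for both. GLI3 averaged 1.22 ± 0.882 FPKM in induced and 1.18 ± 0.265 FPKM in control BxPC-3 cells, where GLI1 and GLI2 were near 0. PTCH1, although a GLI target, showed no such division between the lines, and HHIP was near 0 in both.

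**Figure D2:**
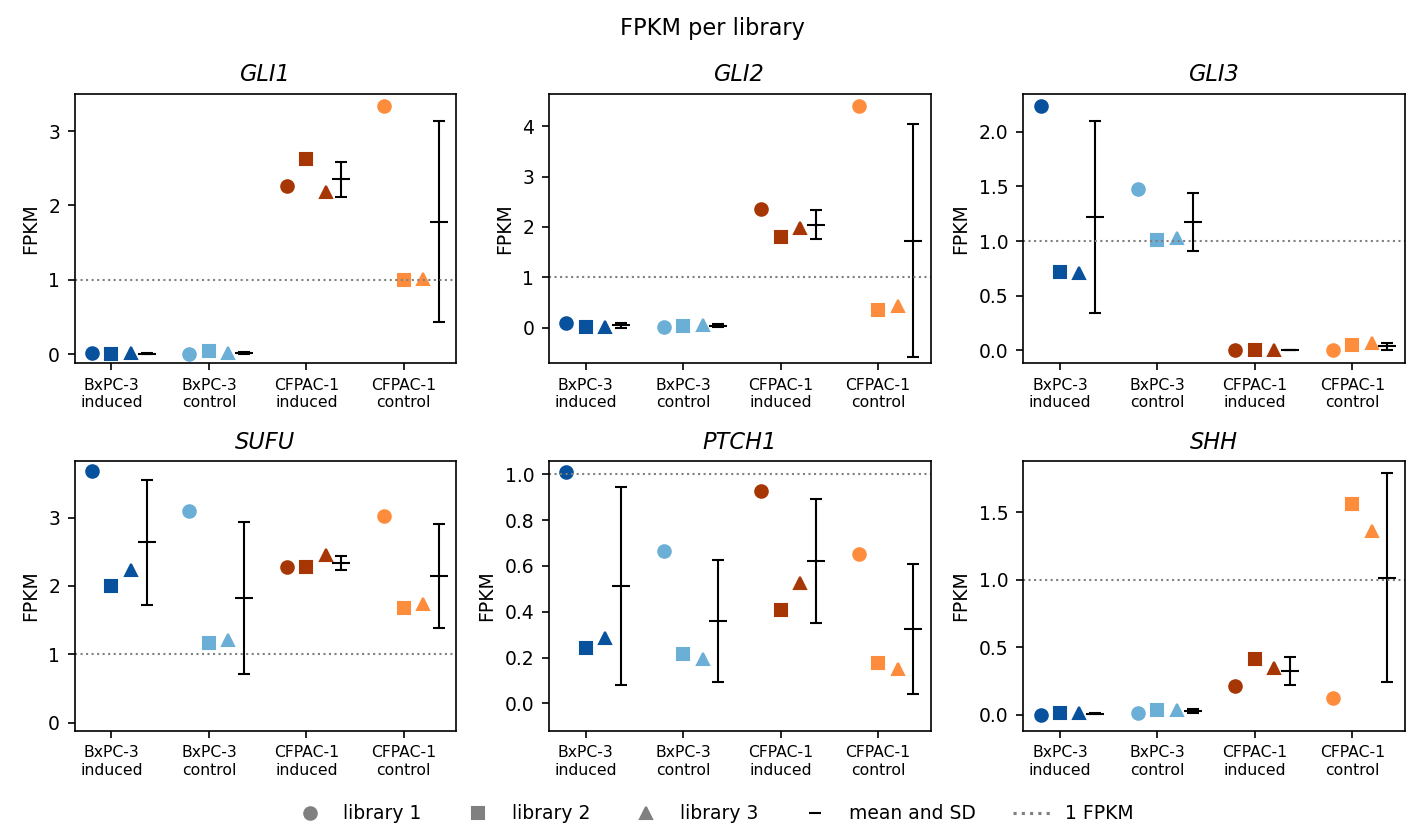
FPKM of 6 members per library, by group on the x axis, with bars for the mean and SD of the 3 libraries and a dotted line at 1 FPKM. In CFPAC-1 control, library 1 is the highest for GLI1 (3.34 FPKM) and GLI2 (4.4 FPKM) and the lowest for SHH (0.126 FPKM), and library 1 is the highest of every group for PTCH1. The lower SD bar of GLI2 in CFPAC-1 control runs below 0 because its SD exceeds its mean.

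None of the 4 tested members (SUFU, GLI1, GLI2 and GLI3) passed the test on induction of cilia in either line by limma, where 0.334% of all tested genes passed in BxPC-3 and 16.6% in CFPAC-1. None of the 4 had an unadjusted p under 0.05, which 8.52% of all tested genes had in BxPC-3 and 36% in CFPAC-1. In BxPC-3 the log2(FPKM + 1) changes were -0.01 for GLI1 (95% interval -0.58 to 0.56), 0.00 for GLI2 (95% interval -0.90 to 0.91) and -0.03 for GLI3 (95% interval -0.54 to 0.48). Each induced range overlapped its control range. In CFPAC-1 the changes were 0.37 for GLI1 (95% interval -0.20 to 0.94, adjusted p = 0.325) and 0.47 for GLI2 (95% interval -0.43 to 1.38, adjusted p = 0.434) by limma with Benjamini-Hochberg adjustment. These means combine opposite directions, given here by library number, which is not known to pair libraries. Within library number 1 the change was -0.41 for GLI1 and -0.69 for GLI2, and within numbers 2 and 3 it was 0.76 and 1.05. Without CFPAC-1 control 2 and 3, the difference was -0.37 for GLI1 (adjusted p = 0.333) and -0.83 for GLI2 (adjusted p = 0.0679) in the same limma fit with Benjamini-Hochberg adjustment. Without CFPAC-1 control 1 in their place, the values were 0.74 (adjusted p = 0.0011) and 1.13 (adjusted p = 9.7e-05). The direction for GLI1 and GLI2 in CFPAC-1 therefore depends on which control libraries are used. The difference of the changes, BxPC-3 minus CFPAC-1, was -0.38 for GLI1 (adjusted p = 0.535), -0.47 for GLI2 (adjusted p = 0.643) and 0.02 for GLI3 (adjusted p = 0.977).

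The members were set beside a wider list of 56 genes of the pathway, which holds the 9 members and covers ligand handling, receptors, SMO partners, GLI regulators and targets reported for GLI. By group means, 37 of the 56 reached 1 FPKM in some group, and 33 passed the filter. All 13 negative regulators and kinases were among the 37, with KIF7, the ciliary kinesin that scaffolds GLI, and the protein kinase A and casein kinase genes that phosphorylate GLI. Of the SMO group 6 of 9 reached 1 FPKM, of the co-receptors 2 of 3, of the targets 10 of 15 and of the ligand processing genes 1 of 6.

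On induction in BxPC-3, 0 of the 33 list genes passed by limma with Benjamini-Hochberg adjustment, against 0.334% of all tested genes, and 0 had an unadjusted p under 0.05, against 8.52% of all tested genes. The median log2 change of the list was -0.03, and of all tested genes 0.06. In CFPAC-1, 3 list genes rose and 3 fell, or 18.2% of those tested, against 7.85% and 8.77% of all tested genes, 16.6% together. The median log2 change of the list was -0.03 there, and of all tested genes -0.09, and these were -0.20 and -0.05 without CFPAC-1 control 2 and 3. FOXL1, a forkhead factor gene that Hedgehog signals induce in the gut mesenchyme of mice, stood at 65.9, 60.1 and 60.2 FPKM in induced CFPAC-1, against 32.4, 5.86 and 5.67 FPKM in control CFPAC-1, a log2 change of 2.45 (adjusted p = 0.0105 by limma with Benjamini-Hochberg adjustment). IGFBP6, a binding protein of insulin-like growth factor, was at 448, 512 and 441 FPKM in induced libraries, against 324, 1.54 and 1.65 FPKM in control libraries. GLIS2, a GLI-similar zinc finger factor, was at 21.3, 18.2 and 16.2 FPKM in induced libraries, against 9.38, 11.6 and 13 FPKM in control libraries. Induced libraries were above all controls for these 3 genes, which were picked because they passed, so this adds little. The same held for BMP4 and SPP1, which did not pass, and for 14% of all tested genes. For FOXL1 and IGFBP6, control 1 lay much nearer to the induced libraries than controls 2 and 3 did.

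The genes that fell on induction in CFPAC-1 were the protein kinase A subunit genes PRKACB and PRKACA, whose product marks GLI proteins for processing, and IQCE, which anchors the EVC complex. PRKACB was at 1.45, 0.747 and 0.743 FPKM in induced libraries, against 1.54, 15.0 and 14.2 FPKM in control libraries. PRKACA was at 7.33, 6.55 and 6.11 FPKM in induced libraries, against 8.76, 13.3 and 12.7 FPKM in control libraries. IQCE was at 0.833, 0.835 and 1.01 FPKM in induced libraries, against 1.39, 2.85 and 3.26 FPKM in control libraries. Induced libraries were below all controls for these 3 genes, likewise picked because they passed, and the gap was widest to controls 2 and 3. The same order held for STK36, which did not pass, and for 17.6% of all tested genes. Without CFPAC-1 control 2 and 3, 0 of the 33 list genes passed by limma, against 1.73% of all tested genes. The log2 difference was then -0.38 for PRKACB (adjusted p = 0.522), 0.92 for FOXL1 (adjusted p = 0.12), 0.52 for IGFBP6 (adjusted p = 0.336) and 0.91 for GLIS2 (adjusted p = 0.09) in that fit with Benjamini-Hochberg adjustment. In the test of the difference of the changes, 0 of 33 list genes passed by limma, against 2.45% of all tested genes, and 9 (27.3%) had an unadjusted p under 0.05, against 24.3% of all tested genes. The median difference was -0.03 for the list and 0.16 for all tested genes, and 0.17 and 0.13 without CFPAC-1 control 2 and 3.

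**Figure D3:**
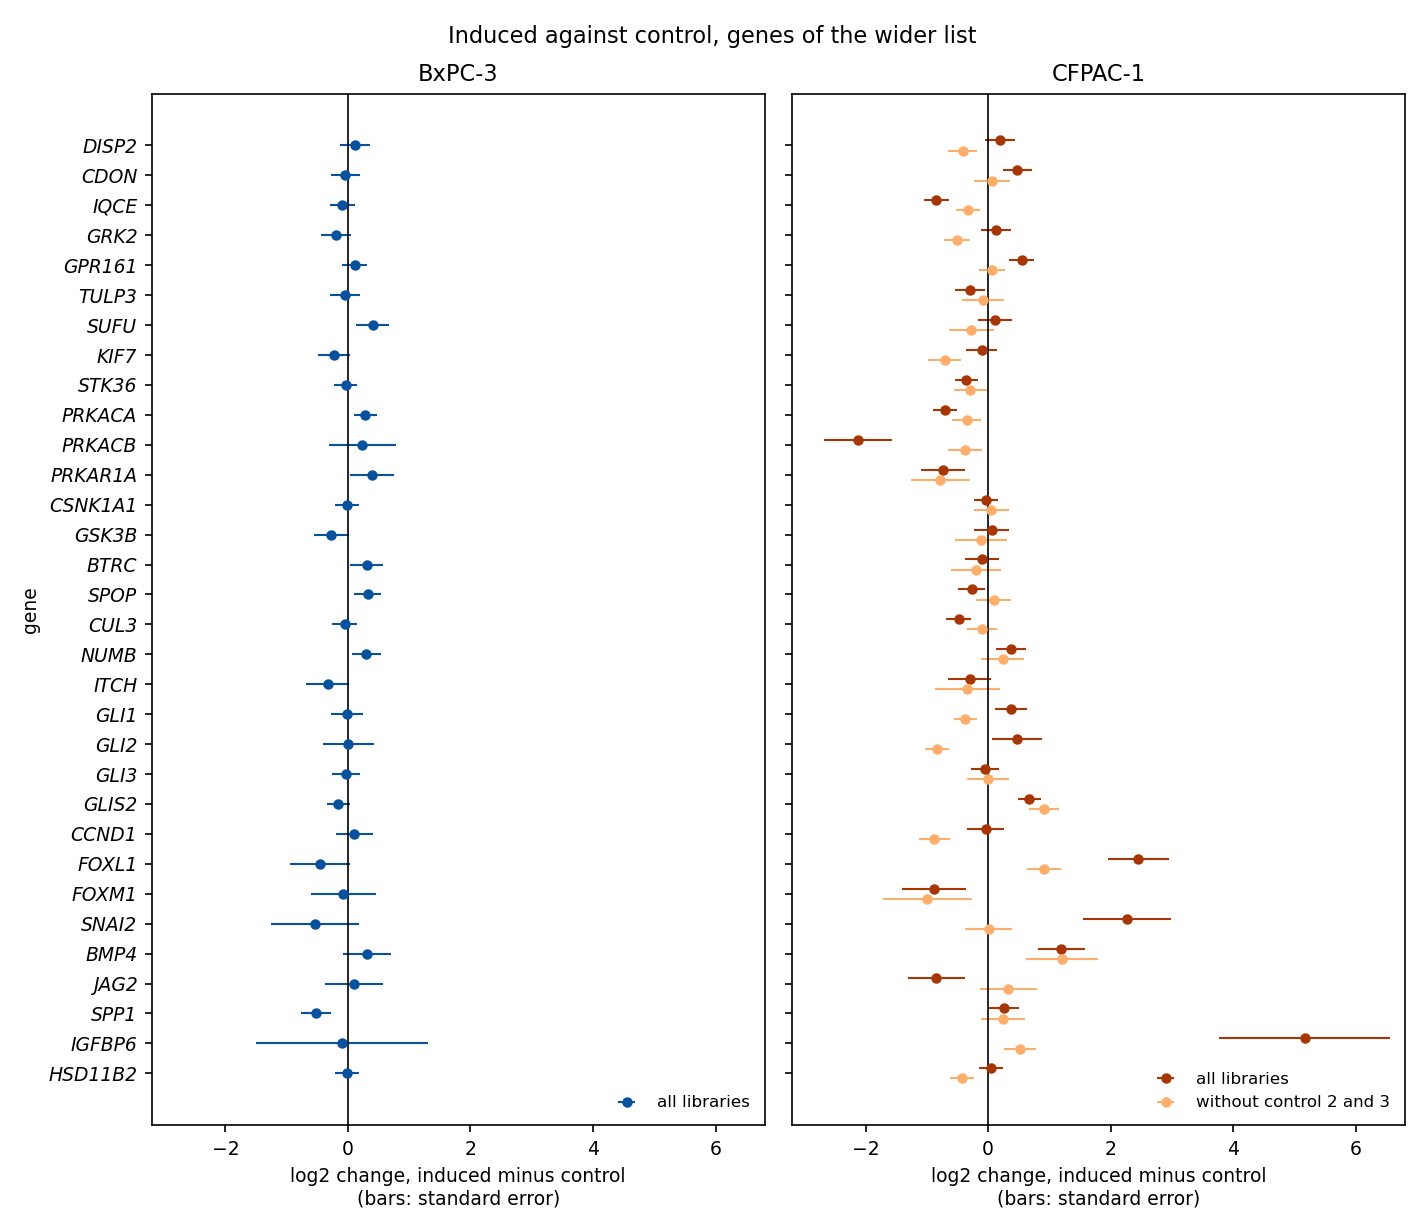
Log2 change of mean FPKM + 1, induced minus control (x axis, bars for the standard error), of tested genes of the wider list (y axis), in BxPC-3 on the left and in CFPAC-1 on the right. In CFPAC-1 the paler points, which leave out control 2 and 3, fall on the other side of 0 for GLI1 (-0.37 against 0.37) and GLI2 (-0.83 against 0.47) and are nearer to 0 for PRKACB (-0.38) and IGFBP6 (0.52).

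Between the induced lines, 11 of 33 list genes passed (33.3%), 3 of them higher and 8 lower in BxPC-3. Of all tested genes, 21.4% were higher and 14.8% lower. CFPAC-1 control 2 and 3 enter this comparison only through the shared estimate of the spread. With only the induced groups in the fit, 14 list genes passed, with CCND1, IGFBP6, IQCE and PRKACB added and CDON lost. JAG2, a Notch ligand reported as a GLI target, stood at 46.4, 19.7 and 37.8 FPKM in induced BxPC-3, against 1.12, 1.4 and 1.1 FPKM in induced CFPAC-1. BMP4, a secreted growth factor, stood at 2.02, 1.61 and 1.23 FPKM in induced BxPC-3, against 3.16, 14.8 and 8.07 FPKM in induced CFPAC-1. FOXL1 stood at 5.2, 3.45 and 3.31 FPKM in induced BxPC-3, well below its 60.1 to 65.9 FPKM in induced CFPAC-1. On the log2(FPKM + 1) scale GLIS2 (-1.92) and DISP2 (-1.37) were likewise lower in BxPC-3, and HSD11B2, a steroid dehydrogenase gene, was higher (1.03). DISP2 passed the filter only through CFPAC-1 and HSD11B2 only through BxPC-3, so a difference was built in, and with no filter their adjusted p-values were 0.00537 and 0.00409 by limma with Benjamini-Hochberg adjustment. KIF7 (-0.73, adjusted p = 0.0447) and CDON (-0.67, adjusted p = 0.0443) passed narrowly in BxPC-3 against CFPAC-1 by the same test. With no filter both missed the threshold (adjusted p = 0.0963 and 0.085 by limma). CDON was at 1 FPKM or more in 5 libraries, only 1 of them BxPC-3, so its difference was partly built in as well. The targets reported for GLI therefore did not all lie on the side of GLI1 and GLI2. Between the control lines, 10 of 33 passed (30.3%), 6 higher and 4 lower in BxPC-3, against 13.1% of all tested genes in each direction. JAG2 (2.99), SPP1 (1.33) and HSD11B2 (1.10) were higher beside GLI3, and DISP2 (-1.30), GLIS2 (-1.09) and PRKACA (-0.64) were lower beside GLI1. SPP1 too passed the filter only through BxPC-3, and with no filter the adjusted p-values were 0.00728 for SPP1, 0.00395 for HSD11B2 and 0.00941 for DISP2 by limma with Benjamini-Hochberg adjustment. SNAI2, a repressor of epithelial genes (3.09), and IGFBP6 (4.21) were the other higher ones, but without CFPAC-1 control 2 and 3 SNAI2 (0.84, adjusted p = 0.131) and PRKACA (-0.29, adjusted p = 0.398) missed the threshold and IGFBP6 stood at -0.43 (adjusted p = 0.254) by limma with Benjamini-Hochberg adjustment, and 11 of 33 passed against 27.5% of all tested genes. The median difference between the lines, BxPC-3 minus CFPAC-1, was 0.05 for the list and 0.12 for all tested genes between induced cells, and -0.24 and -0.07 between control cells.

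**Figure D4:**
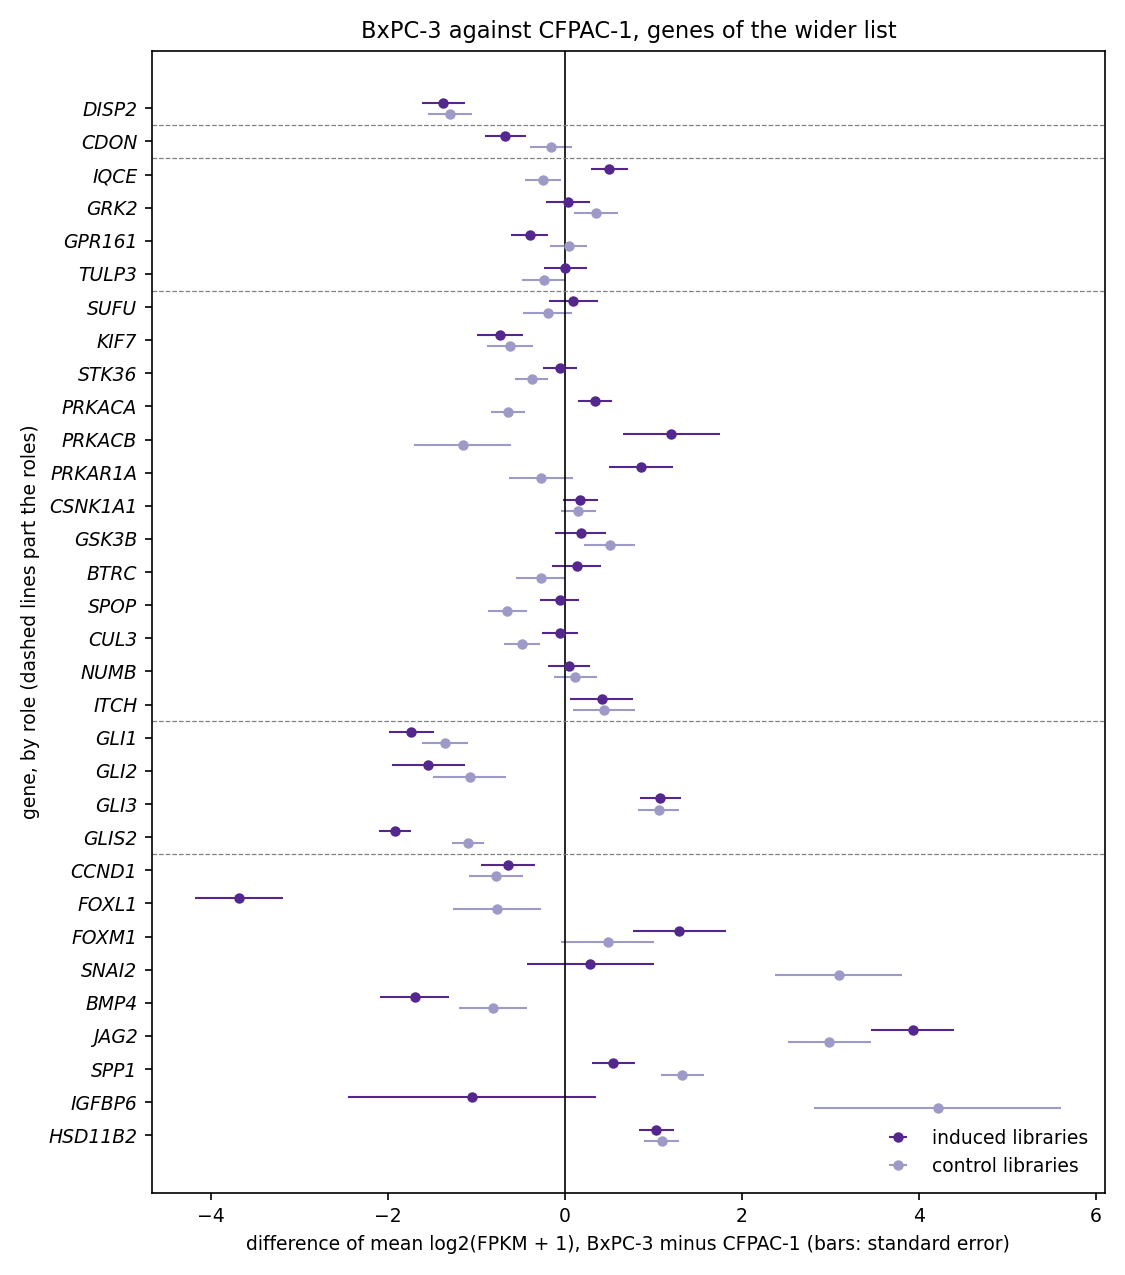
Difference of mean log2(FPKM + 1), BxPC-3 minus CFPAC-1 (x axis, bars for the standard error), of tested genes of the wider list, ordered by role on the y axis, for induced (dark) and control (pale) libraries. GLI1 (-1.73 induced, -1.35 control) and GLI2 (-1.54 and -1.07) lie left of 0 and GLI3 (1.08 and 1.06) lies right of it, whereas SUFU is near 0 in both states.

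Common targets of the pathway gave little of a shared pattern. CCND1 (cyclin D1) was high everywhere, at 66.7, 64.4 and 68.3 FPKM in induced BxPC-3, against 57.5, 62.0 and 66.2 FPKM in control BxPC-3, and at 81.0, 113 and 122 FPKM in induced CFPAC-1, against 192, 77.7 and 81.5 FPKM in control CFPAC-1. It passed in none of the 5 comparisons with all libraries. Without CFPAC-1 control 2 and 3 it was lower in BxPC-3 between induced lines (-0.64, adjusted p = 0.0151) and between control lines (-1.62, adjusted p = 0.00115), by limma with Benjamini-Hochberg adjustment. BCL2, an inhibitor of cell death, stayed at or below 0.711 FPKM in all 12 libraries and was not tested in the main fit. It was at 0.269 to 0.711 FPKM in induced BxPC-3, against 0.0232 to 0.0392 FPKM in induced CFPAC-1. In control cells it was at 0.497 to 0.641 FPKM in BxPC-3, against 0.171 to 0.262 FPKM in CFPAC-1. With no filter it passed by limma between the induced lines and not between the control lines. MYCN was at most 0.0729 FPKM in BxPC-3, and at 0.399, 0.613 and 0.619 FPKM in induced CFPAC-1, against 1.07, 0 and 0.0201 FPKM in control CFPAC-1. SFRP1, a Wnt antagonist, and the forkhead gene FOXF2 were highest in CFPAC-1 control 2 and 3, at 2.69 and 2.79 FPKM for SFRP1 and at 1.09 and 0.947 FPKM for FOXF2. In the other 10 libraries they were at most 0.00819 and 0.0217 FPKM.

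Markers of other cell types also differed between libraries, and not all in the same direction in CFPAC-1 control 2 and 3. The summed level of 10 fibroblast and stellate cell markers was 2.21 to 3.42 FPKM in induced and 2.94 to 3.36 FPKM in control BxPC-3, and 26.7 to 111 FPKM in induced and 7.96 to 37.8 FPKM in control CFPAC-1. In induced CFPAC-1 and in control 1 it was mostly LUM (lumican), at 25.5, 108 and 103 FPKM in induced libraries, against 36.8, 0.0532 and 0 FPKM in control libraries, while COL1A2 and FAP were at or below 0.283 FPKM in all 12. Within CFPAC-1, COL1A1, COL3A1 and THY1 reached 1 FPKM in control 2 and 3 alone and made up most of the sum there, at 4.27 and 4.28 FPKM for COL1A1, 1.98 and 2.06 FPKM for COL3A1 and 1.61 and 1.72 FPKM for THY1. The 4 immune markers summed to 8.88 to 12.7 FPKM in induced and 4.91 to 6.12 FPKM in control BxPC-3, and to 37.5 to 48.1 FPKM in induced and 10.6 to 13.2 FPKM in control CFPAC-1, nearly all of it CD68 and CD14, with PTPRC at most 0.00981 FPKM. The 3 endothelial markers summed to at most 0.621 FPKM. The part of these differences in the GLI1, GLI2, SHH and EVC values was not tested.

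The genes whose log2(FPKM + 1) was most like that of a tested member were sought among 5690 protein-coding genes over the 12 libraries. For GLI1 they were QPRT, an enzyme of NAD synthesis (r = 0.993), NGEF (r = 0.988) and C11orf68 (r = 0.987). For GLI2 they were the receptor gene FGFR4 (r = 0.984), the export pump gene ABCC2 (r = 0.984) and the adhesion gene KIRREL1 (r = 0.98). For GLI3 they were HS6ST1, a heparan sulfate sulfotransferase gene (r = 0.989), the cadherin gene FAT2 (r = 0.983) and LY6D (r = 0.98). For SUFU they were DBNL (r = 0.964), HECTD3 (r = 0.91) and EHMT2 (r = 0.908). Over the 10 libraries without CFPAC-1 control 2 and 3 all 12 correlations were at least 0.943. The 12 points share 2 lines, library numbers and depth, and the genes were picked as the highest of many, so these values describe likeness of pattern in these libraries and nothing more.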

How the data were processed

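RNA-seq was run on 12 libraries, 3 in each of 4 groups. FastQC, StringTie and the genome build GRCh38 are named in the submitters' processing notes. No source used here names the aligner, the annotation or whether reads were counted by strand. The authors deposited 1 table of log2(FPKM + 1), per the file headers and the values, and FPKM was recovered by undoing the log2. FPKM depends on the library total, of which mitochondrially encoded genes took 11.6% to 34.0%.

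The test took 12860 of the 60564 genes, those at 1 FPKM or more in 3 or more of the 12 libraries. In R 4.3.3, limma 3.58.1 was fitted to log2(FPKM + 1) with 4 group means over all libraries and 8 residual degrees of freedom. The fit was tested on simulated data. All p-values are two-sided and adjusted by Benjamini-Hochberg over the tested genes, with a threshold of 0.05. The offset of 1 understates changes of low genes. Differences are induced minus control, or BxPC-3 minus CFPAC-1. Values over 3 libraries are means ± SD.

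Coordinates are 1-based on GRCh38 from GENCODE release 29, in which 58457 identifiers (96.5%) were found. Relative depth was estimated from the lowest values of 10725 genes with a single transcript, where a peak of values worth 1 read stood 4.62 to 11.3 times over the level between peaks, so read numbers are approximate. Promoters are RefSeq sequences on GRCh38.p14.

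The members, the wider list and the markers were chosen with earlier results of these data known. Some genes of the wider list enter its counts but are not reported here one by one or plotted. All members were named, and of the wider list the tested genes that passed in a comparison, the ligands, co-receptors, receptors and GLI factors, CCND1, MYCN and BCL2. Genes named beside these, by their levels, were chosen after their values were seen. For likeness of pattern, the 3 genes of highest Pearson r to each tested member were taken among protein-coding genes with a mean of at least 5 FPKM over the group means. Alternatives covered the pseudocount, filter, scaling, moderation, libraries in the fit, each library left out, and a replicate block.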

Additional observations from a re-analysis of the deposited data

How the results depend on the processing

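GLI1 and GLI3 passed between the lines, induced and control, in all 20 alternatives that tested them. GLI2 between induced lines was lost with no filter, and between control lines passed in 6 of 20. All of these alternatives but the one with no filter kept the filter that each of these genes passed through a single line. A difference between lines was thus built in, and passing there adds no support for it. With a mean of at least 5 FPKM these genes were not tested. The number of the 33 list genes that passed in CFPAC-1 (6) became 3 with no filter, 3 with the replicate block, 0 with only the groups of the contrast, 0 without CFPAC-1 control 2 and 3, and 0 to 14 when single libraries were left out, with 14 without CFPAC-1 control 1, 0 without control 2 or control 3 and 1 without induced 2 or induced 3. For the difference of the changes (0) leaving out single libraries gave 0 to 11, the highest without CFPAC-1 control 1, and for the lines 9 to 16 (induced, 11) and 8 to 16 (control, 10). A mean of at least 5 FPKM left fewer list genes to test (15), of which 3 and 5 passed between the induced and control lines. With only the groups of the contrast, 14 passed between the induced lines and 7 between the control lines. That alternative gives no difference of the changes.

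Signs of uncalled member changes turned in these cases. Without CFPAC-1 control 2 and 3, the CFPAC-1 changes were -0.27 for SUFU, -0.37 for GLI1 and -0.83 for GLI2, and the difference of the changes was 0.36 for GLI1, 0.84 for GLI2 and -0.032 for GLI3. Quantile normalization gave -0.011 for the GLI3 difference and -0.013 for SUFU between induced lines. With single libraries left out, BxPC-3 changes ran from -0.022 to 0.0041 for GLI1, -0.029 to 0.023 for GLI2 and -0.34 to 0.12 for GLI3, the GLI3 difference from -0.29 to 0.17, and SUFU between induced lines from -0.098 to 0.22. The cause was not tested.

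Same-numbered libraries deviated together weakly in BxPC-3 (r = 0.151, 0.11 and 0.0535) and not in CFPAC-1 (r = -0.0617, -0.0198 and -0.0798), so the numbers were not taken as pairs. With different numbers, r ran from -0.165 to 0.152 in BxPC-3 and from -0.0603 to 0.0744 in CFPAC-1. In CFPAC-1 the control deviations mostly reflect controls 2 and 3 standing apart, so the check cannot exclude a shared effect of number there. With the replicate block, 0 list genes passed in BxPC-3, 3 in CFPAC-1 and 0 in the difference. No paired analysis was possible between the lines because the libraries of different lines share only a number. Depth limits SMO, IHH and HHIP, and also SHH, GLI1 and GLI2 in BxPC-3 and GLI3 in CFPAC-1. These values rest on few reads, at most about 2.33 for GLI1, 10.2 for GLI2 and 9.4 for GLI3 in the line named.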
